A study of Mus musculus with 25 samples.

Results

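Sciatic nerves of C3 mice that lack c-Jun in Schwann cells, labelled C3-PMP22 c-JunP0Cre, were compared with nerves of C3 mice that keep it. The 5 C3-PMP22 c-JunP0Cre libraries and the 5 C3 libraries were taken by their genotype labels from the 25 RNA libraries of the series. Each group had 1 library per age (3, 5, 7, 9 or 12 weeks), made from the pooled sciatic nerves of 4 to 5 males and females, so that the 5 ages stood in for replicates. C3 mice (B6.Cg-Tg(PMP22)C3Fbas/J) carry extra copies of human PMP22 and model Charcot-Marie-Tooth disease type 1A, and both groups share this transgene. The labels describe the knockout as specific to Schwann cells, and in the name P0Cre a promoter active in the Schwann cell lineage drives Cre recombinase, an enzyme that removes DNA flanked by its target sites. The labels give no strain for C3-PMP22 c-JunP0Cre, and littermates without Cre were not analysed here. All libraries carry the same batch label, WT-C3 (C57BL/6J, without the transgene) is given beside the values as the control of C3, and WT-C22 (FVB/NRJ, without a transgene) serves as a second wild type.

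c-Jun, the product of Jun, is a transcription factor of the AP-1 family, whose members bind DNA as pairs. Schwann cells keep it low while they make myelin and raise it when their axon is lost or the nerve is diseased. It then drives the repair programme, in which myelin genes are turned down and trophic factors, Ngfr, Shh and Gfap are turned up. It can also oppose Egr2, the transcription factor that starts myelination.

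Jun itself was checked first. C3-PMP22 c-JunP0Cre nerve had 31.5, 29.5, 26.3, 27.2 and 31.7 CPM of Jun from the youngest to the oldest age, where CPM is the count relative to the TMM-scaled size of its library. C3 nerve had 93.8, 116.4, 110.1, 124.7 and 105.3 CPM at the same ages, and WT-C3 nerve a mean of 58.5 ± 8.45 CPM (SD, n = 5). All libraries labelled C3-PMP22 c-JunP0Cre therefore lay below all C3 libraries, and their level ran from 0.219 to 0.336 of that in C3 at the same age. The log2 fold change was -1.90 (SE 0.089, adjusted p = 7.29e-07), and the exact two-sided permutation test gave p = 0.00794 (n = 5 and 5), the smallest p that 5 against 5 libraries allow. Jun is a gene with 1 exon on the minus strand of GRCm39 chr4:94937271-94940459. In RNA of the whole nerve, fewer cells of a type and less RNA per cell cannot be told apart, so the remaining Jun counts have no assigned cell.

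**Figure D1:**
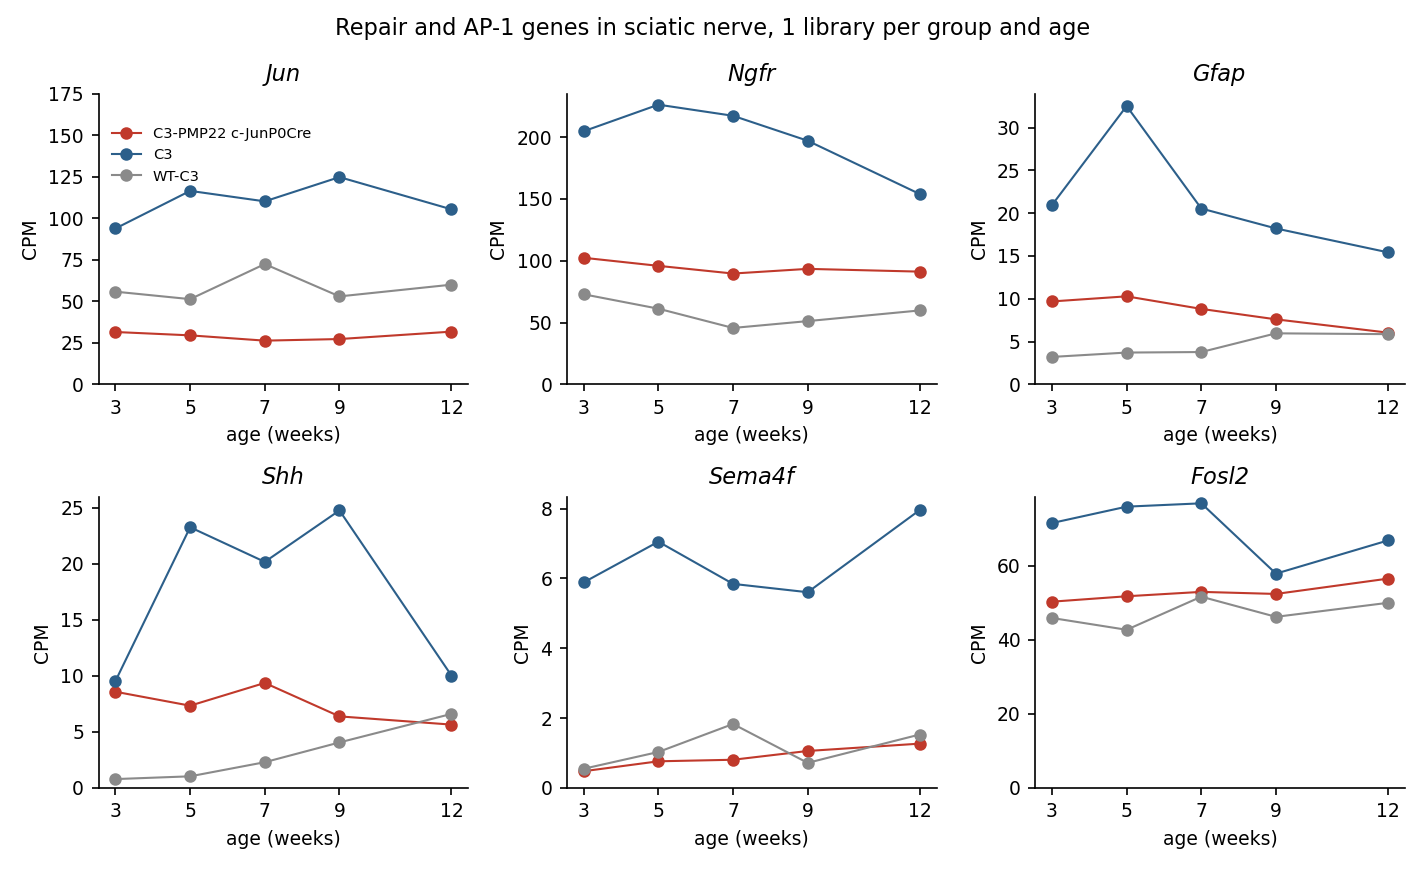
Level of Jun, Ngfr, Gfap, Shh, Sema4f and Fosl2 (CPM, y axis from 0) against age in weeks for C3-PMP22 c-JunP0Cre, C3 and WT-C3, with 1 point per library. Jun lies at 26.3 to 31.7 CPM in C3-PMP22 c-JunP0Cre and at 93.8 to 124.7 CPM in C3, and Shh is at 8.57 against 9.53 CPM at 3 weeks.

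Across the transcriptome, 77 of 13993 genes tested (0.55%) differed between C3-PMP22 c-JunP0Cre and C3 at an adjusted p under 0.05. Of these, 31 were higher (0.222%) and 46 lower (0.329%) in the nerve without c-Jun. Deviations from the group means correlated above 0.1 between same-age libraries, most strongly at 12 weeks (0.615) and least at 5 weeks (0.143). With age as a replicate block the count rose to 273 genes (1.95%), with 164 higher (1.17%) and 109 lower (0.779%). The 77 genes were all among the 273. The libraries of the groups did not overlap in 75 of the 77 genes, against 2.27% of all genes tested, and 76 changed the same way at all 5 ages. Both counts follow largely from the choice of these genes in the same libraries, so they are no separate support. The median log2 fold change of all genes was -0.000636. Leaving out the C3-PMP22 c-JunP0Cre library of 5, 7 or 9 weeks left 47, 45 and 50 called genes, and leaving out the C3 library of 5 or 7 weeks left 43 and 45. With each library left out in turn, 40 of the 77 genes kept their call in every fit. Among the genes described below, calls were lost in at least 1 of these fits for Slc17a8, Erdr1y, Vmn1r181, Gfra3, Me1, Gria1 and Kcnk10. The same held for Otop1, Btc, Erbb4, Gpc1, Gpr157, Pgd, Scel and Pgcka1. The C3 library of 9 weeks had only 2140142 counts on genes, while the other C3 libraries had 23010045 to 49072746 and the C3-PMP22 c-JunP0Cre libraries 20619191 to 31717449. The share of counts on mitochondrial genes was higher in C3-PMP22 c-JunP0Cre at 5 of 5 ages, at 2.39% to 3.01% against 1.21% to 2.42%, and its part in the results was not tested.

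**Figure D2:**
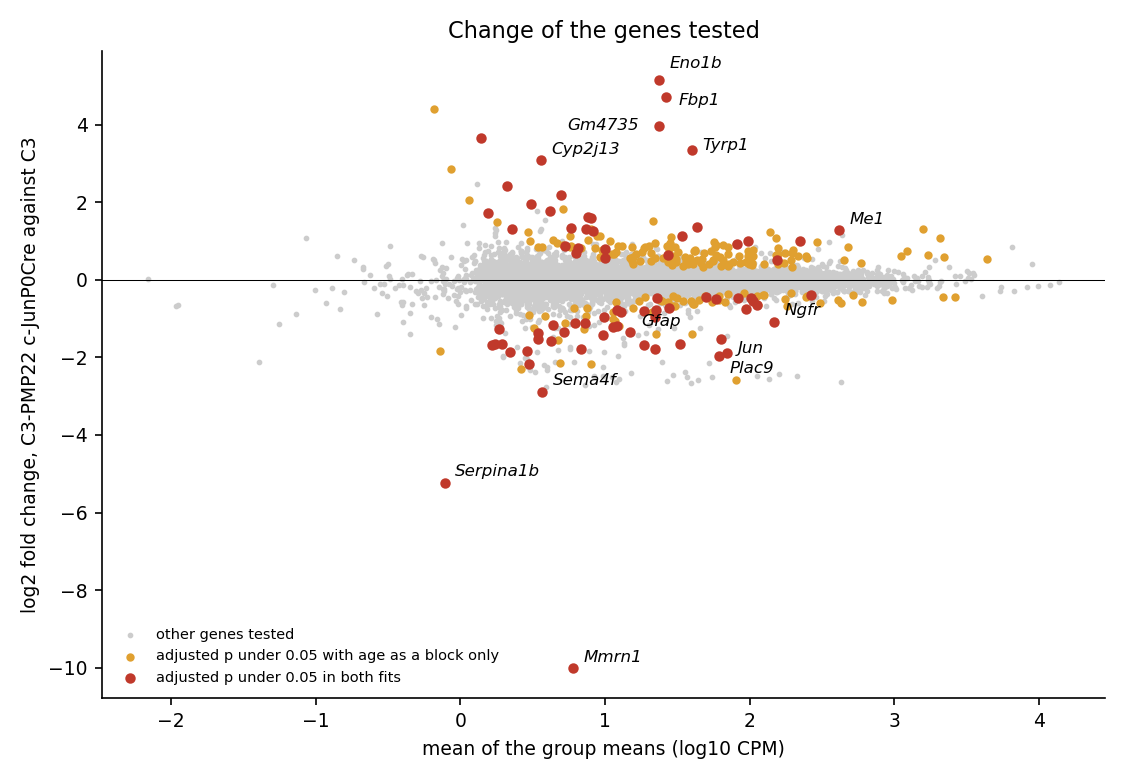
Log2 fold change of C3-PMP22 c-JunP0Cre against C3 (y axis) against the mean of the group means in log10 CPM (x axis), with 1 point per gene drawn. Red points are genes called in both fits, orange points those called only with age as a block, and Mmrn1 lies far below the other genes drawn.

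The genes of the repair programme that changed all fell. In the list of 20 repair Schwann cell genes, 16 were expressed above the filter. Of these, 3 were called (Jun, Ngfr and Gfap), against 0.55% of all genes tested. Jun is the targeted gene, so its fall was set by the design. It also enters the count of signs, the median and the sum given next. With age as a block, Shh was called as a further lower gene. Of the 16 genes, 12 had a log2 fold change below 0 and 4 above 0, with a median of -0.22. The summed level of all 20 genes was 520 to 561 CPM in C3-PMP22 c-JunP0Cre and 690 to 785 CPM in C3. Its means were 541 and 727 CPM. Within it, Jun was at 29.2 against 110 CPM and Ngfr at 94.5 against 200 CPM on average. Together these falls were about as large as the whole gap between the means of the sum. The other genes of the list thus had no net fall in the sum.

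Ngfr, which encodes the p75 neurotrophin receptor of immature and repair Schwann cells, was at 102.4, 95.9, 89.7, 93.4 and 91.2 CPM from 3 to 12 weeks in the nerve without c-Jun. In C3 it was at 204.8, 226.3, 217.3, 197.1 and 154 CPM, and in WT-C3 at 58.1 ± 10.4 CPM (SD, n = 5). The groups did not overlap, and the level without c-Jun stayed above the WT-C3 mean (log2 fold change -1.08, SE 0.097, adjusted p = 0.000288). Gfap, the intermediate filament of non-myelinating and repair Schwann cells, was at 9.68, 10.3, 8.81, 7.59 and 6.04 CPM without c-Jun and at 20.9, 32.5, 20.5, 18.2 and 15.4 CPM in C3. Again no library overlapped (log2 fold change -1.35, SE 0.20, adjusted p = 0.00984).

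Shh encodes Sonic hedgehog, a secreted signal that Schwann cells make after injury. It was at 8.57, 7.33, 9.36, 6.38 and 5.64 CPM in C3-PMP22 c-JunP0Cre and at 9.53, 23.2, 20.2, 24.8 and 10.0 CPM in C3. The gap was narrow at 3 weeks, where the ratio was 0.899, and widest at 9 weeks, where it was 0.258. The change of -1.18 on the log2 scale (SE 0.28) missed the threshold in the fit without age (adjusted p = 0.126) and passed it with age as a block (-1.11, adjusted p = 0.0422) and without the C3 library of 3 weeks (-1.35, adjusted p = 0.0381). It missed the threshold with the block and both 9-week libraries left out (-0.95, adjusted p = 0.112) and with all 25 libraries in 1 fit (adjusted p = 0.36). The exact two-sided permutation test gave p = 0.00794 (n = 5 and 5). In the hedgehog list of 15 genes, 14 were tested, and Shh with age as a block was the only one called. Dhh, the hedgehog ligand of myelinating Schwann cells, was at 244 ± 51.9 CPM against 294 ± 39.8 CPM (SD, n = 5 each), and the target gene Gli1 was at 95.9 ± 20.3 against 94.6 ± 6.24 CPM.

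Other repair genes did not pass. Sox2, a factor of immature Schwann cells, was at 19.4 ± 1.52 against 24.3 ± 2.18 CPM (adjusted p = 0.196), and Runx2 at 6.73 ± 0.752 against 9.62 ± 2.82 CPM (adjusted p = 0.289). Cdh2, the gene of N-cadherin, was at 75.8 ± 7.08 against 58.4 ± 3.88 CPM (adjusted p = 0.0712). Olig1 and the trophic factor Gdnf lay below the filter on low counts. Gdnf was at 0.976 to 1.79 CPM without c-Jun and at 1.40 to 4.28 CPM in C3, with 190 and 427 counts in total. The groups overlapped only through the shallow C3 library of 9 weeks, where 1.40 CPM stands for 3 counts, the floor of detection. Olig1 was at 0 to 0.11 CPM against 0.201 to 0.934 CPM.

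Among 19 AP-1 and ATF transcription factors, 17 were tested and Jun alone was called. Fosl2, a dimer partner of c-Jun, was at 50.3 to 56.6 CPM in C3-PMP22 c-JunP0Cre and at 57.9 to 76.9 CPM in C3, without overlap. Its change of -0.41 (SE 0.081) was just outside the threshold (adjusted p = 0.0547) and inside it with age as a block (adjusted p = 0.0432). The relatives Junb (28.5 ± 4.47 against 30.6 ± 11.0 CPM), Jund (133 ± 18.8 against 146 ± 48.3 CPM), Fos (30.6 ± 4.85 against 32.2 ± 9.80 CPM) and Atf3 (44.6 ± 5.30 against 45.3 ± 3.71 CPM) did not pass. None of 19 immediate early genes was called, in either fit.

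In the list of 27 trophic factors and receptors, 19 were tested and the receptors Gfra3 and Ngfr were called, in opposite directions. Gfra3 encodes the co-receptor for artemin. It was at 14.6, 15.6, 13.9, 8.77 and 6.44 CPM without c-Jun and at 2.54, 4.80, 4.04, 5.60 and 3.79 CPM in C3 (log2 fold change 1.60, SE 0.27, adjusted p = 0.0215). The highest C3 library thus lay below the lowest library without c-Jun.

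Falls and rises by size are given for called genes with at least 5 CPM in the higher group and the same direction at all ages. Mmrn1, which encodes multimerin 1 of platelets and endothelium, had 1 count in all C3-PMP22 c-JunP0Cre libraries together and 1898 in C3. It was at 3.27 to 22.8 CPM in the C3 libraries and at 17.3 ± 7.49 CPM in WT-C3 (SD, n = 5), so that only the nerve without c-Jun was near 0. The counts per depth were 1820 times as high in C3 (95% counting interval 326 to 71900), and the interval covers counting error only. WT-C22 had 8.92 CPM of Mmrn1 on average. The summed endothelial markers were at 709 to 1057 CPM without c-Jun and at 587 to 970 CPM in C3. What set the level of Mmrn1 was not tested, and the labels give no strain for C3-PMP22 c-JunP0Cre.

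Sema4f, a transmembrane semaphorin, was at 0.476, 0.76, 0.804, 1.06 and 1.27 CPM from 3 to 12 weeks in C3-PMP22 c-JunP0Cre and at 5.89, 7.05, 5.84, 5.60 and 7.96 CPM in C3. The level without c-Jun was close to the 1.13 ± 0.541 CPM of WT-C3 (SD, n = 5), and the log2 fold change was -2.88 (SE 0.23, adjusted p = 0.000115). Slc17a8, which encodes the vesicular glutamate transporter VGLUT3, was at 1.70 to 4.81 CPM against 6.07 to 14.6 CPM in C3 and 0.571 ± 0.233 CPM in WT-C3 (log2 fold change -1.78, SE 0.31, adjusted p = 0.0234). Efcab7, a protein of the cilium that acts in hedgehog signalling, was at 1.43 to 2.98 CPM against 5.70 to 6.99 CPM in C3 and 8.04 ± 1.09 CPM in WT-C3 (log2 fold change -1.57, SE 0.20, adjusted p = 0.00378).

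Plac9, Tmem254 and Duxbl1 fell together and lie side by side on chromosome 14, from 25886804 to 25990577 on GRCm39. Plac9, a small secreted protein, was at 24.8 ± 6.64 CPM against 98.1 ± 29.3 CPM in C3 (SD, n = 5 each; log2 fold change -1.96, SE 0.23, adjusted p = 0.00149). Tmem254, a membrane protein, was at 16.1 ± 3.96 against 50.1 ± 11.1 CPM (-1.66, SE 0.18, adjusted p = 0.00117). Duxbl1, a double homeobox gene, was at 10.1 ± 2.41 against 34.4 ± 4.74 CPM (-1.77, SE 0.17, adjusted p = 0.000436). The 3 genes were also lower in WT-C22 than in WT-C3, by -2.40, -1.49 and -1.97 on the log2 scale. Erdr1y, a noncoding RNA gene on the Y chromosome, was at 5.19 to 10.8 CPM against 16.4 to 54.6 CPM (-1.68, SE 0.31, adjusted p = 0.0381). The Y-linked gene Ddx3y, which reflects the share of males in a pool, was at 25.9 to 66.9 CPM against 30.1 to 84.0 CPM and overlapped between the groups.

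Among the rises, Fbp1 and Tyrp1 stood out for their size and evenness. Fbp1 encodes fructose-1,6-bisphosphatase of gluconeogenesis. It was at 36.1, 38.1, 46.6, 65.6 and 68.6 CPM in C3-PMP22 c-JunP0Cre and at 1.67, 1.74, 1.73, 2.80 and 2.56 CPM in C3 (log2 fold change 4.72, SE 0.25, adjusted p = 1.76e-06). It was already higher in C3 than in WT-C3, where it was at 0.103 ± 0.102 CPM (SD, n = 5). Tyrp1, an enzyme of melanin synthesis, followed the same order, with 61.6 to 83.6 CPM, 5.14 to 10.7 CPM and 0.31 ± 0.324 CPM (log2 fold change 3.34, SE 0.19, adjusted p = 2.85e-06).

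Eno1b, a copy of the glycolysis gene Eno1, and the processed pseudogene Gm4735 were at 44.6 ± 11.8 and 43.1 ± 11.0 CPM without c-Jun and at 3.06 ± 4.82 and 3.99 ± 3.82 CPM in C3 (SD, n = 5 each). Their log2 fold changes were 5.15 (SE 0.56, adjusted p = 0.00103) and 3.98 (SE 0.37, adjusted p = 0.000298). Both levels are uncertain, since reads that fit such a copy and its parent gene equally well were in no gene count. Mean levels of Eno1b and Gm4735 were 48.3 and 45.5 CPM in WT-C22 and 2.37 and 2.68 CPM in WT-C3. In the shallow C3 library of 9 weeks they were at 11.7 and 10.7 CPM, against 0.743 to 1.17 and 1.74 to 3.11 CPM in the other C3 libraries.

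Cyp2j13, a cytochrome P450 gene, was at 4.63 to 9.05 CPM in C3-PMP22 c-JunP0Cre, at 0 to 1.17 CPM in C3 and at 11.1 ± 2.36 CPM in WT-C3, so that C3 was the low group (log2 fold change 3.09, SE 0.36, adjusted p = 0.00161). Rab15, a small GTPase of endosomes, was at 6.90 to 10.2 CPM against 0.467 to 2.54 CPM (2.18, SE 0.22, adjusted p = 0.000521). Hapln2, a link protein of the node of Ranvier, was at 10.3 to 13.1 CPM against 2.31 to 5.15 CPM (1.62, SE 0.21, adjusted p = 0.00378). Wdfy1, an endosomal adaptor, was at 58.4 to 68.4 CPM against 14.9 to 30.5 CPM (1.35, SE 0.13, adjusted p = 0.000425). The groups overlapped for none of these genes. The pheromone receptor gene Vmn1r181 was at 3.02 to 8.45 CPM against 0.926 to 2.33 CPM (1.76, SE 0.31, adjusted p = 0.0282).

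Further called genes were picked for their known functions after their values were seen. Channels, receptors and exchangers of neurons and glia were called in both directions. The AMPA receptor gene Gria1 (1.79 ± 0.876 against 5.12 ± 1.16 CPM, adjusted p = 0.042), the sodium-calcium exchanger Slc8a3 (1.26 ± 0.480 against 4.55 ± 0.460 CPM, adjusted p = 0.0053) and the potassium channel Kcnk10 (0.773 ± 0.174 against 2.72 ± 1.20 CPM, adjusted p = 0.021) fell. The proton channel Otop1 rose, from 66.3 ± 19.1 CPM in C3 to 130 ± 16.8 CPM, and was at 6.44 CPM on average in WT-C3 (adjusted p = 0.026). The ErbB ligand gene Btc fell, at 6.83 ± 0.545 against 12.7 ± 3.44 CPM (adjusted p = 0.0226), and the neuregulin receptor gene Erbb4 rose, at 8.42 ± 1.22 against 4.68 ± 0.537 CPM (adjusted p = 0.0148). Among genes of axon and matrix contact, Adam11 fell to 32.6 ± 9.82 CPM from 94.8 ± 14.8 CPM (adjusted p = 0.0049) and Gpc1, the gene of glypican-1, to 87.7 ± 13.7 CPM from 139 ± 13.4 CPM (adjusted p = 0.0197).

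The called genes were set beside the change of C3 against WT-C3, a comparison that uses the same C3 libraries. Of the 46 lower genes, 36 had been called higher in C3 than in WT-C3 and 3 lower. Of the 31 higher genes, 7 had been called higher and 6 lower. In all, 23.9% of the genes tested were called in C3 against WT-C3 (12.5% higher, 11.4% lower). Because the C3 libraries enter both differences, with opposite signs, these counts are given side by side and were not tested.

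Many of the called genes also differed between mouse strains. Of the 77 genes, 37 (48.1%) differed between WT-C22 (FVB/NRJ) and WT-C3 (C57BL/6J), against 21.7% of all genes tested. These 37 were 1.22% of the 3033 genes that differed between the wild types. The share was 67.7% among the higher genes (21 of 31) and 34.8% among the lower genes (16 of 46). In 26 of the 37 genes (70.3%) the sign was the same, with the nerve without c-Jun on the side of FVB/NRJ, while the sign was the same in 54.1% of the genes that differed between the strains and were not called here. Eno1b (4.38 between the strains on the log2 scale), Gm4735 (4.12), Rab15 (3.36) and Wdfy1 (1.30) rose in both comparisons. Cxcl10 was lower in both (-1.62 between the strains, adjusted p = 0.000332). Gfap (1.57, adjusted p = 0.000156) and Gfra3 (-0.92, adjusted p = 0.00627) also differed between the strains, each against its direction without c-Jun. Jun (0.012, adjusted p = 0.968) and Ngfr (-0.24, adjusted p = 0.304) were not called between the strains. Strain and loss of c-Jun cannot be told apart here, since the labels give no strain for C3-PMP22 c-JunP0Cre.

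**Figure D3:**
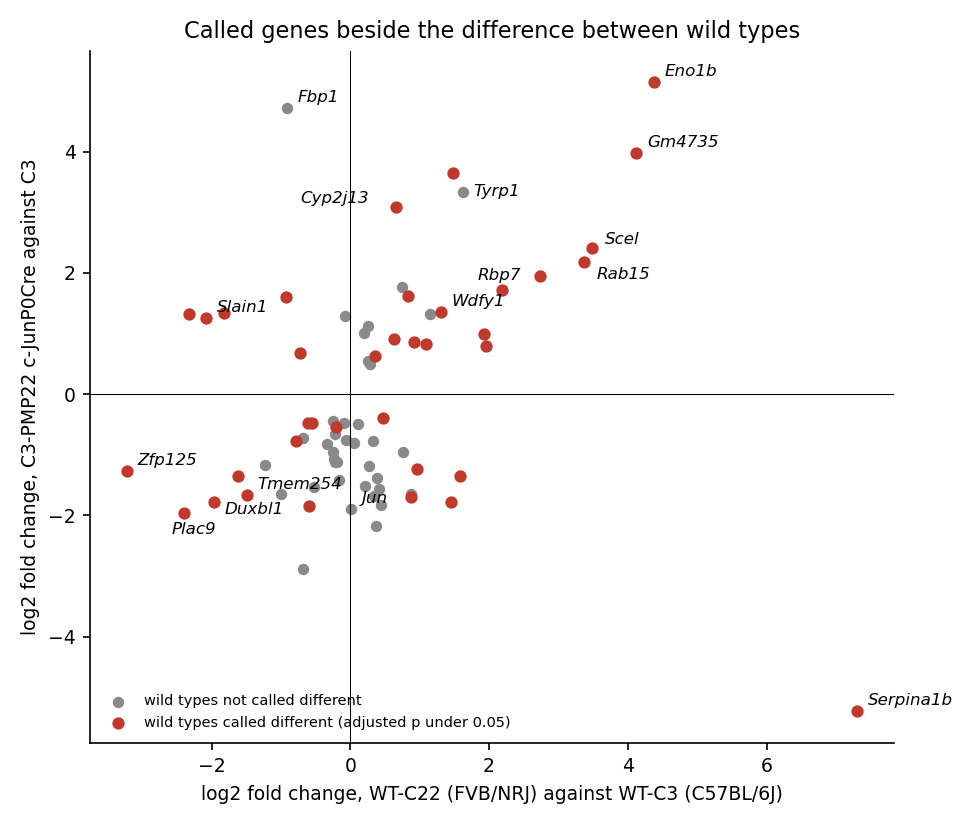
Log2 fold change of C3-PMP22 c-JunP0Cre against C3 (y axis) against that of WT-C22 against WT-C3 (x axis) for called genes, with Mmrn1 off the scale and not drawn. Red points are genes that also differed between the wild types, and Eno1b, Gm4735, Rab15 and Rbp7 lie up and right while Plac9, Duxbl1 and Tmem254 lie down and left.

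Position on the chromosome was examined around the targeted gene. Within 20 Mb of Jun on chromosome 4, 5 of 124 genes tested other than Jun were called (4.03%), against 0.55% of all genes. With age as a block there were 9 (7.26%, against 1.95%). The 5 genes were Tyrp1, Adamtsl1 and Cyp2j13, which rose, and Slc24a2 and Efcab7, which fell. Cyp2j13 starts at 95915771, about 1 Mb from Jun. Adamtsl1, a matrix protein, was at 101 to 114 CPM against 48.5 to 66.6 CPM (log2 fold change 0.92, SE 0.086, adjusted p = 0.00036). On all chromosomes, 22 of the called genes lay within 1 Mb of another called gene, in 9 runs. A run of 4 near the end of chromosome 4 (Pgd, Rbp7, Gm13071 and Gpr157) held genes that rose and genes that fell.

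Genes of myelin were not called without c-Jun. The summed level of 10 markers of myelinating Schwann cells was 37010 to 68720 CPM in C3-PMP22 c-JunP0Cre and 39620 to 59330 CPM in C3. It was lower without c-Jun at 4 of 5 ages and higher at 3 weeks. Prx, the gene of periaxin, a scaffold protein of myelinating Schwann cells, was at 8118, 5509, 5480, 6241 and 4949 CPM without c-Jun and at 7313, 7906, 6963, 9280 and 5695 CPM in C3. Its libraries overlapped between the groups, and no gene of 22 in the myelin list was called. Of these 22 genes, 16 had a log2 fold change below 0 and 6 above 0 (median -0.10). Of the 10 markers, 9 were below 0 and 1 above 0 (median -0.10). With age as a block Pals2, a scaffold protein of Schwann cell incisures, was called higher (0.38, adjusted p = 0.0194). Of 27 myelination transcription factors, 25 were tested and none was called. Egr2 was at 162 ± 27.3 against 210 ± 63.6 CPM and Sox10 at 522 ± 42.2 against 619 ± 90.5 CPM (SD, n = 5 each). Id2, an inhibitor of differentiation that is high in immature Schwann cells, was called higher with age as a block, at 43.0 ± 6.72 against 32.3 ± 6.21 CPM (adjusted p = 0.426 without the block and 0.0205 with it).

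The human transgene did not differ detectably between the groups. The human gene ENSG00000109099 took 99.82% of the counts on the 15 human genes of the added locus. It was at 7867 to 16220 CPM in C3-PMP22 c-JunP0Cre and at 10110 to 13940 CPM in C3, and the exact two-sided permutation test gave p = 0.389 (n = 5 and 5). Mouse Pmp22 was at 6846 to 12470 CPM against 8370 to 11390 CPM.

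In lipid synthesis, genes of cholesterol and of fatty acids were looked at separately. None of 20 cholesterol synthesis genes was called in either fit, and 18 of them had a log2 fold change below 0 (median -0.24, or -0.29 with age as a block). Hmgcs1, an early enzyme of the pathway, was at 1263 and 398 CPM at 3 and 12 weeks without c-Jun and at 1286 and 738 CPM in C3. Of 20 genes of fatty acid and galactolipid synthesis, none was called without the block. With it, Fasn and Scd1 were higher and Acsbg1 lower.

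Fasn, the fatty acid synthase gene, was at 1293, 2222, 2098, 1600 and 4105 CPM without c-Jun and at 945, 820, 693, 1071 and 1109 CPM in C3 (log2 fold change 1.30, adjusted p = 0.0892, or 0.0201 with age as a block). Scd1, which makes oleate, was at 1994 to 4798 against 1149 to 1853 CPM (1.07, adjusted p = 0.123, or 0.00188). Me1, the malic enzyme that supplies NADPH for fatty acid synthesis, was called in both fits, with 391 to 938 CPM against 217 to 273 CPM (1.28, SE 0.21, adjusted p = 0.0185). Pgd, a further source of NADPH, was at 182 ± 22.0 against 130 ± 8.33 CPM (0.50, adjusted p = 0.0352). For Fasn, Scd1 and Me1 the libraries of the groups did not overlap.

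Most markers of fat cells were also higher without c-Jun. None of 9 adipocyte markers was called without the block, and 7 were higher with it (Adipoq, Lep, Plin1, Cidec, Retn, Cfd and Lpl, with a median of 0.68 over the 9 genes). Their summed level was 1268 to 6027 CPM in C3-PMP22 c-JunP0Cre and 668 to 4139 CPM in C3, higher at 5 of 5 ages, with the highest value at 12 weeks in both groups. The sum did not follow Fasn by age. It was at 1268 against 668 CPM at 3 weeks and at 6027 against 4139 CPM at 12 weeks. Fasn was at 1.37 and 3.7 times its C3 level at these ages. Plin1, which coats fat droplets, was at 243 ± 134 against 153 ± 87.0 CPM (adjusted p = 0.812, or 0.00277 with age as a block). The part of these markers in the higher levels of Fasn, Scd1 and Me1 was not tested.

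**Figure D4:**
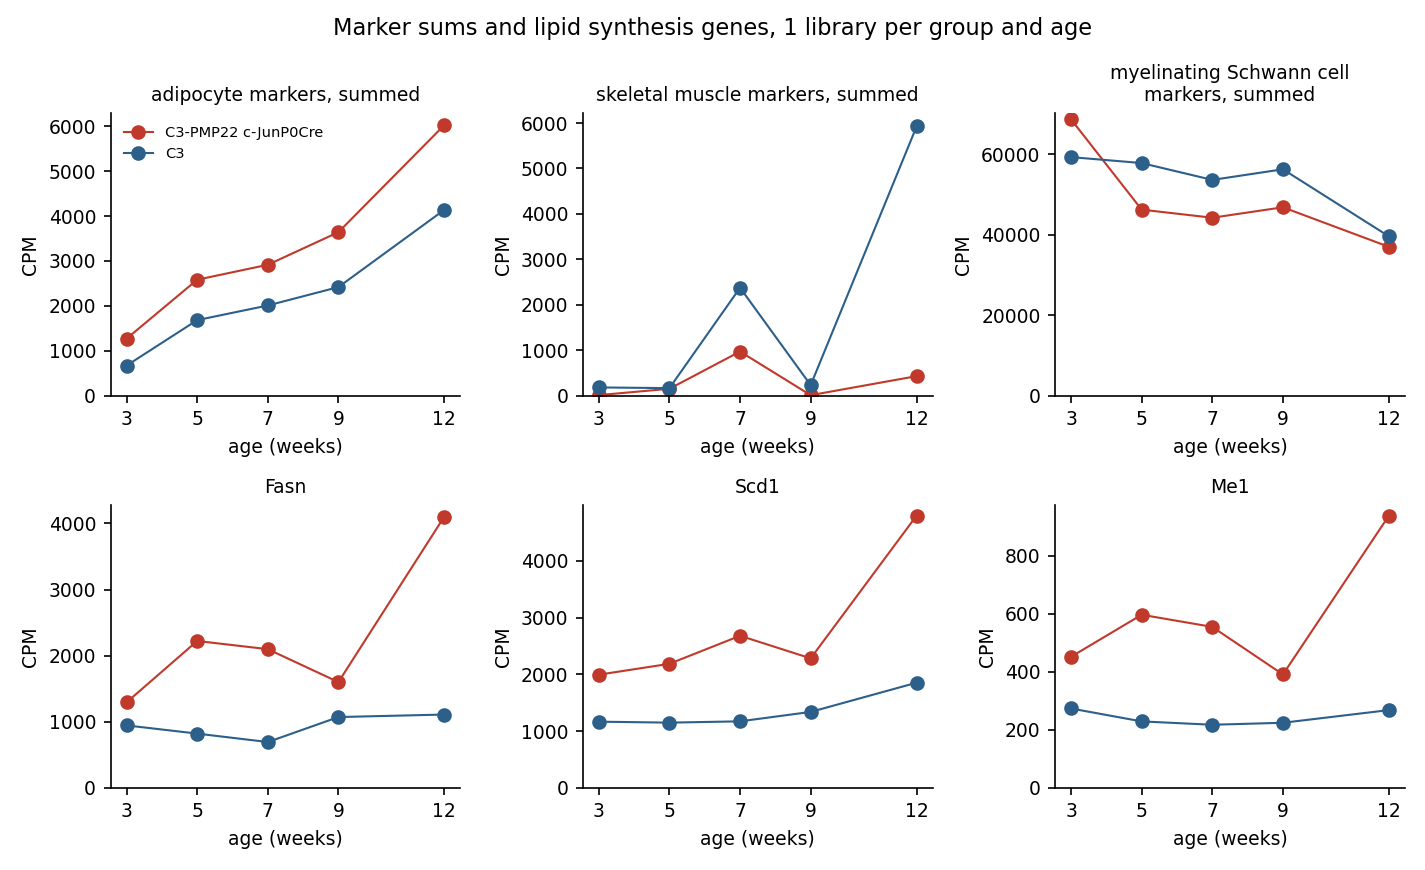
Summed CPM of the markers of adipocytes, skeletal muscle and myelinating Schwann cells, and CPM of Fasn, Scd1 and Me1 (y axes from 0), against age in weeks, with 1 point per library of C3-PMP22 c-JunP0Cre and C3. The adipocyte sum and the 3 lipid genes are higher without c-Jun at all ages, and the muscle sum reaches 5926 CPM in the C3 library of 12 weeks.

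Skeletal muscle markers moved the other way. Their sum was 8.49 to 970 CPM in C3-PMP22 c-JunP0Cre and 164 to 5926 CPM in C3, lower without c-Jun at 5 of 5 ages, and was highest in the C3 libraries of 7 and 12 weeks (2374 and 5926 CPM). None of the 9 muscle genes tested was called without the block, while Actn3, a protein of fast muscle fibres, was called lower with it (-2.34, adjusted p = 0.0408). Of 9 genes of non-myelinating (Remak) Schwann cells, Ngfr and Gfap were called, both lower. The list was mixed, with 4 of the 9 at a log2 fold change above 0 and 5 below 0. The sum of the 9 was 732 to 962 CPM against 778 to 1038 CPM. Sums of other cell markers overlapped. Macrophage markers summed to 419 to 757 against 505 to 656 CPM, fibroblast markers to 10240 to 29820 against 10990 to 26120 CPM, and endothelial markers to 709 to 1057 against 587 to 970 CPM, and no member of these lists was called in either fit. The endothelial sum was higher without c-Jun at 5 of 5 ages, and all 9 endothelial markers had a log2 fold change above 0 (median 0.23). Markers of mast cells, pericytes and red blood cells were not called either. Markers of T cells, B cells and neutrophils did not pass the filter on low counts, with sums of at most 6.07 CPM in these libraries. Of the perineurial markers, Cldn1 was higher with age as a block (0.61, adjusted p = 0.0432).

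In the matrix, 4 of 32 genes were lower with age as a block and none without it. Tnc, the gene of tenascin-C, was at 38.9, 26.6, 18.6, 14.3 and 13.6 CPM without c-Jun and at 96.6, 79.5, 58.4, 28.0 and 24.2 CPM in C3. The level was lower without c-Jun at each age (log2 fold change -1.39, SE 0.40, adjusted p = 0.25, or 0.00134 with age as a block). Postn, Col5a1 and Col12a1 were the others, with log2 fold changes of -0.60, -0.53 and -0.41 (adjusted p with age as a block 0.0104, 0.0168 and 0.0175).

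Of 33 chemokines and cytokines, 19 were tested and Cxcl10 was called. This ligand of CXCR3 was at 2.54, 2.80, 2.81, 2.88 and 3.87 CPM without c-Jun and at 7.02, 9.30, 8.94, 5.14 and 6.76 CPM in C3, with WT-C3 at 2.13 ± 0.362 CPM (log2 fold change -1.35, SE 0.18, adjusted p = 0.00378). It was lower in WT-C22 than in WT-C3 too, by -1.62 on the log2 scale. It was also the only gene of the 21 interferon response genes tested to be called. Ccl2, a chemokine for monocytes, was at 5.40 ± 2.63 against 6.03 ± 2.54 CPM (SD, n = 5 each). No gene of the cell cycle (23 tested), the unfolded protein response (20), lysosome and autophagy (31), ERK and PI3K signalling (31) or MHC (20) lists was called in either fit.

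The letters of AP-1 sites were searched in promoters, defined as 250 bases before to 50 after an annotated start in RefSeq. The search covered TGACTCA with its reverse complement TGAGTCA and the palindrome TGACGTCA, so that both strands were read. Promoters were matched for 31 of the 46 lower genes, 21 of the 31 higher genes and 10374 of the genes tested. A match stood in 3 of the 31 (9.68%), in 4 of the 21 (19.0%) and in 814 of all (7.85%). Jun and Ngfr had no match in this window, and no promoter of Shh was matched. The promoters of Cxcl10, which fell, and of Rab15 and Me1, which rose, are shown as examples of named genes that hold the letters. They are given 5' to 3' along the gene with the AP-1 letters in capitals, and all lie on the minus strand of GRCm39, where the RefSeq sequences (from a table of build GRCm38.p6) were found by exact match.
Cxcl10 (chr5:92496699-92496998): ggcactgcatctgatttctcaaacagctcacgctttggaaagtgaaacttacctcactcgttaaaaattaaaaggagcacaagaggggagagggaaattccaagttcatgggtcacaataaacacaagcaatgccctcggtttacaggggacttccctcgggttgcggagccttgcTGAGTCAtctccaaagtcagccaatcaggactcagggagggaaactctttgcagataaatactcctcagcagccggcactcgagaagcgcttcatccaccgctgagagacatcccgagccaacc
Rab15 (chr12:76865099-76865398): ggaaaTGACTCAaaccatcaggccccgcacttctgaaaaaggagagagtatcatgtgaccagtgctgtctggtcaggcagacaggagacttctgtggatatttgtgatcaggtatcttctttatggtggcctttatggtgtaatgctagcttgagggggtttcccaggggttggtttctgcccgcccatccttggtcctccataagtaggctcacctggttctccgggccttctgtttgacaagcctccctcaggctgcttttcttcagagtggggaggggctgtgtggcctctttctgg
Me1 (chr9:86577918-86578217): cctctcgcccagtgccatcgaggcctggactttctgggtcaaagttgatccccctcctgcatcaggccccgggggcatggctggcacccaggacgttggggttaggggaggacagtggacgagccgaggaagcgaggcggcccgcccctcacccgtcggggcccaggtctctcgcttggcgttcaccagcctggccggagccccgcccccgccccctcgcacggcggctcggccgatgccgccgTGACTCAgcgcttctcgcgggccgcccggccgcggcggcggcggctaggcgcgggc
The AP-1 letters start at -74 relative to the start in Cxcl10, at -245 in Rab15 and at -6 in Me1. A match describes the letters only, and binding was not measured.

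Change with age did not differ detectably between the groups. The slope of expression against age was compared between C3-PMP22 c-JunP0Cre and C3 with edgeR's quasi-likelihood test, and 0 of 13993 genes passed (0%), with 299 at an unadjusted p under 0.05. DESeq2 was not run on the slopes. When the C3-PMP22 c-JunP0Cre library of 12 weeks was left out, the predicted genes Gm64463 and Gm55118 passed (adjusted p = 0.0183 for each).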

How the data were processed

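RNA of pooled sciatic nerves was poly(A) enriched and sequenced. Per the paper and the labels, the authors trimmed the reads, aligned them with STAR 2.7.5a to GRCm39 with the human transgene locus added, removed duplicates with UMI-tools 1.1.1, counted fragments per gene with HTSeq 0.12.4 and deposited the counts without normalization. Of 56956 genes (15 human), 13993 were kept, which had a log2 CPM over 1 in 7 or more of the 25 libraries. Between 2.76% and 3.93% of fragments aligned to several places and were in no gene count, as were 8.12% to 12.1% on no gene. Depth was 2140142 to 49072746 counts per library, and 3 counts were taken as the floor of detection. Intervals cover counting error only.

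The main test was edgeR 4.0.16's quasi-likelihood fit (R 4.3.3) on the 10 libraries, with TMM factors, group as the only term and Benjamini-Hochberg adjustment at 0.05. Age as a replicate block was the alternative. Deviations from group means correlated between same-age libraries at 0.445, 0.143, 0.326, 0.289 and 0.615 in order of age, all above 0.1. The blocked value, which pairs the ages, is therefore printed where it changes a call. The main test did not pair them. At 5 and 7 weeks the C3-PMP22 c-JunP0Cre library correlated better with a C3 library of another age (0.418 and 0.422). Nothing says that the pools are more than 1 draw per group and age, so errors cover age and pool together. Printed CPM use TMM factors over 25 libraries. Exact permutation tests used log2(CPM + 0.5). Promoters came from RefSeq (GRCm38.p6) and gene positions from GENCODE M39 on GRCm39. The fit was tested on simulated counts.

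Genes named are Jun, Shh, the human genes, the 10 largest rises and falls (adjusted p under 0.05, at least 5 CPM in the higher group, the same direction at 5 ages), list members past the threshold in either fit, and examples of list members that did not pass. Results on some of them are not reported here. The 31 gene lists were written from general knowledge, and the group, lists and tests were chosen with earlier results of these data known. Alternatives were DESeq2 1.42.0, the likelihood ratio test, other size factors and filters, all 25 libraries in 1 fit, a linear age term, a stricter threshold (0.01), and fits that each omit 1 library.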

Additional observations from a re-analysis of the deposited data

Results flagged for a closer look

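Among 232 groups of 5 libraries examined, 14 held a library set apart from the other 4 by a gap of more than 0.71 of the group's range, and chance gives about 5% of such groups. The groups were the C3-PMP22 c-JunP0Cre and the C3 libraries for Jun, Shh, the called genes reported here, list members called with age as a block, the human genes, Mbp, Prx, Hmgcs1, the marker sums (log2) and depth, with genes taken as log2(CPM + 0.5) and depth as counts.

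In C3, the library of 9 weeks, which is the shallow one, was high for the copy gene Eno1b, at 11.68 CPM against 0.743 to 1.17 CPM in the other C3 libraries, and for the predicted gene Gm13071, at 4.203 CPM against 2.03 to 2.27 CPM. The C3 library of 3 weeks was low for Vmn1r181, at 0.9262 CPM against 1.87 to 2.33 CPM, and for Bean1, at 12.31 CPM against 15.7 to 16.9 CPM. The C3 library of 12 weeks was low for the summed markers of myelinating Schwann cells, at 39620 CPM against 53660 to 59330 CPM, and for the human gene ENSG00000286792, at 1.402 CPM against 2.48 to 3.05 CPM.

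In C3-PMP22 c-JunP0Cre, the library of 3 weeks was high for the myelin gene Mbp, at 19180 CPM against 11040 to 12790 CPM, for the human gene ENSG00000279660, at 2.117 CPM against 1.05 to 1.19 CPM, and for the transcription factor gene Bhlhe22, at 24.4 CPM against 18.8 to 20.2 CPM. It was low for the exchanger gene Slc24a2, at 0.3175 CPM against 0.987 to 1.40 CPM. The library of 5 weeks was low for Scel, at 1.216 CPM against 3.33 to 4.72 CPM, and had 1 count of Mmrn1 (0.03041 CPM), where the other libraries of the group had 0. Pgcka1 was high in the library of 9 weeks, at 8.689 CPM against 7.51 to 7.79 CPM. Duxbl1 was low in the library of 12 weeks, at 5.931 CPM against 10.3 to 11.9 CPM. On the CPM scale itself the gap would also pass for Gm4735 in the C3 library of 9 weeks (0.848 of the range, against 0.705 as log2) and for Scd1 in the C3-PMP22 c-JunP0Cre library of 12 weeks (0.755, against 0.663), and other genes were not examined on that scale.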

How the results depend on the processing

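The count of 77 genes was 250 with DESeq2, 193 with the likelihood ratio test, 134 with no filter, 139 with all 25 libraries in 1 fit, 278 with age as a linear covariate, 273 with age as a replicate block, 207 with the block and both 9-week libraries left out, 38 at a threshold of 0.01, and 43 to 98 with 1 library left out. Shh changed by -1.20 with DESeq2 (adjusted p = 0.00178), by -1.20 with the likelihood ratio test, by -1.16 with no filter, by -1.16 with age as a linear covariate and by -1.11 with age as a replicate block, all past the threshold, by -0.95 with the block and both 9-week libraries left out (adjusted p = 0.112) and by -1.20 with all 25 libraries in 1 fit (adjusted p = 0.36), both outside it, and by -1.35 to -1.03 with 1 library left out. The slope comparison called 0 to 2 genes with 1 library left out. The 3033 genes between the wild types became 1720 at a threshold of 0.01. Of 1519 values of the 76 called genes other than Jun under alternatives, 1272 kept their side of the threshold, 247 lost it and 0 changed sign. Ages are single pools, so a difference at 1 age has no replicate check, and the C3 library of 9 weeks limits genes of low count there (3 counts are 1.40 CPM).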
